A study of Mus musculus with 40 samples.

Results

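Expression of 10 immediate early genes was read across the mouse mammary gland: Fos, Fosb and Fosl2 of the FOS family, Jun and Junb of the JUN family, and Egr1, Atf3, Myc, Ier3 and Nr4a1. They were taken by symbol from a deposited table of 22552 genes, and all 10 were present with a value above 0 in each of its 12 groups. In the series, 31 RNA libraries were made from whole mammary tissue of outbred mice, and 9 chromatin immunoprecipitation samples were not analysed here. The series' title names EZH2 and the access of STAT5 to the genome. EZH1 and EZH2 are the alternative methyltransferase subunits of Polycomb repressive complex 2, and STAT5 is the factor that the prolactin receptor activates. Mice deleted for Ezh2 were set against controls in virgins, with or without prolactin. At days 13 (p13) and 18 (p18) of pregnancy, mice deleted for Ezh2 or Ezh1 were set against controls.

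The labels give the genotype Ezh2f/f;control for the Ezh2 knockout (KO), E1-/- for the Ezh1 KO, E1+/-;E2f/f;control for the Ezh2 KO with a single Ezh1 allele (Ezh1 het Ezh2 KO), and MMTV-Cre for the control. The controls thus carry the Cre transgene, and the label of the Ezh1 KO names none. The MMTV promoter drives Cre in the mammary epithelium, so stroma, fat and blood cells of an Ezh2 KO gland may keep Ezh2. The Ezh1 KO came from a separate knockout line and is not given as dependent on Cre. Virgin glands came from 12-week-old mice. The groups were Ezh2 KO and control with prolactin at 5 µg per g, taken 2 h after the injection, and Ezh2 KO and control without treatment, with 2 libraries each. At p13 the Ezh1 KO, Ezh2 KO, Ezh1 het Ezh2 KO and control groups had 3 libraries each, and at p18 the same groups had 3 each except the Ezh1 KO, with 2.

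Prolactin did not come alone. Untreated virgin glands were the left 4th glands, removed under avertin at estrus once the lymph node was out. Prolactin was injected after the mice had recovered, and the right 4th gland was then taken. Surgery, anaesthesia and time therefore came with prolactin and cannot be told apart from it in this design.

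Immediate early genes are transcribed within minutes of a stimulus without the need for new protein, and their mRNAs are short-lived. Serum response factor with its ternary complex partners, CREB and STAT factors act at many of their promoters, and growth factors, cytokines, depolarisation, tissue injury and handling all induce them. FOS and JUN proteins pair through leucine zippers to form the AP-1 factor, and in the mammary gland AP-1, MYC and STAT3 are known for parts in growth, differentiation and involution.

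**Figure D1:**
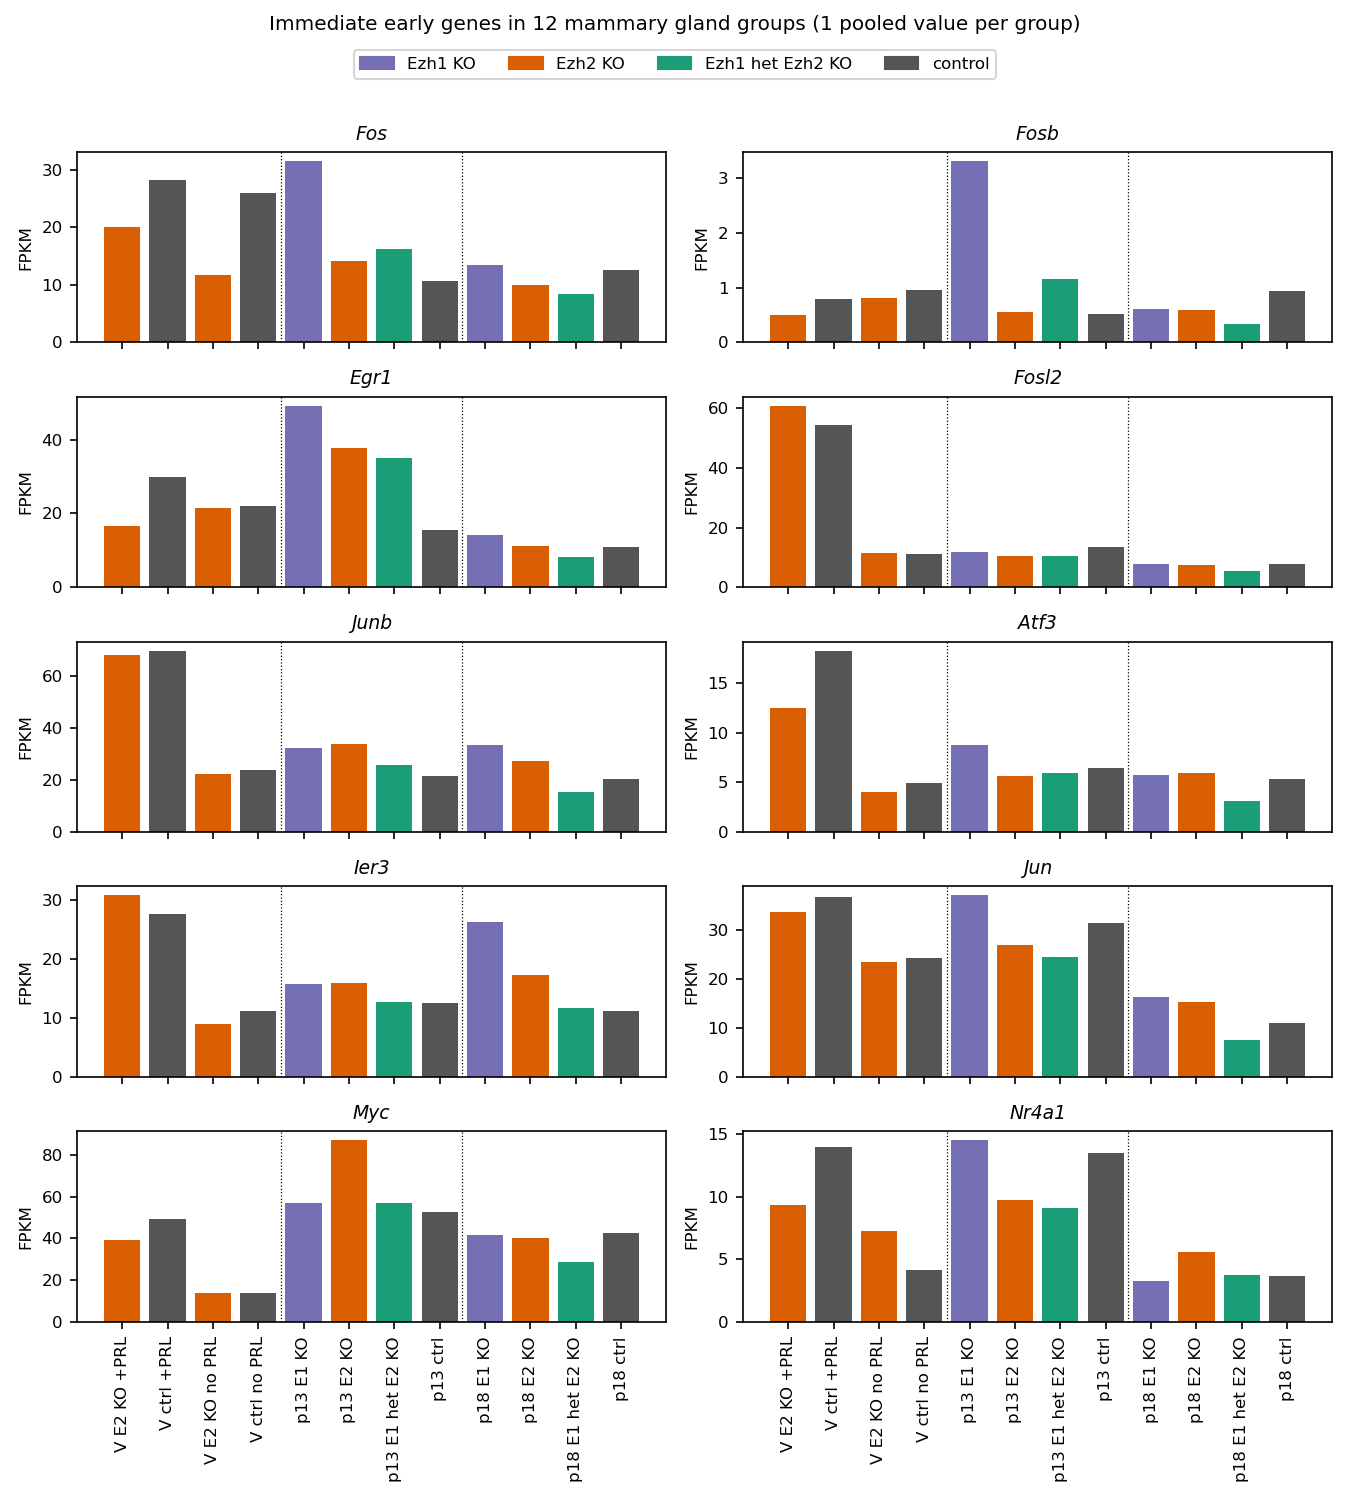
FPKM of the 10 genes, 1 panel a gene, as a bar for each of the 12 groups on linear axes that start at 0 and differ between panels; bars have no error because 1 pooled value a group was deposited, and V is virgin, +PRL with prolactin, no PRL untreated, E1 Ezh1, E2 Ezh2, ctrl control and bar colour the genotype. Fosl2, Junb, Atf3 and Ier3 are highest in the prolactin-treated virgin groups, and Fos, Fosb, Jun, Egr1 and Nr4a1 are highest in the Ezh1 KO at p13.

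All values are the authors' FPKM, a read density per transcript length scaled to sequencing depth, with 1 pooled value for a whole group. No group has a replicate value, so no value has an SD, no difference has a test, and the order of groups with near values cannot be read as a difference. Differences are given as log2(FPKM + 1) of the first-named group minus the second. The added 1 makes the difference of a weakly expressed gene look smaller than its fold, and each fold is a plain ratio of FPKM. A difference of 1 or more in size is called past the threshold, and the same count over the 14273 genes with at least 1 FPKM in some group is given as the background. Because the glands were whole tissue, fewer cells of a type and less RNA per cell cannot be told apart.

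As a check of the labels, Ezh1 was at 1.06 FPKM in the p13 Ezh1 KO, against 14.7 in the p13 control, and at 0.627 in the p18 Ezh1 KO, against 7.37 in the p18 control. Ezh2 was at 5.55 FPKM in untreated Ezh2 KO virgins, against 4.98 in untreated controls, at 13.7 in the p13 Ezh2 KO, against 12.9 in the p13 control, and at 6.41 in the p18 Ezh2 KO, against 10.0 in the p18 control. Its value covers the whole gene and whole tissue, and not the floxed exons alone, so it does not check the deletion. All 12 luminal epithelial markers were above 0 in every group. Summed FPKM of a group ran between 581531 and 1151971. Read depth is unknown.

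Upstream sequence was examined for 8 of the 10 genes, from the RefSeq promoter table for GRCm38.p6. No window was used for Myc or Egr1. The search of the 10 genes skipped all entries of a single chromosome, so a gene without a window may still have an entry. Shown here are 250 bases ending just before the gene start, for Fosl2 and Junb, which stood higher after prolactin, and for Fos and Nr4a1, which hold the most cores of the cyclic AMP response element (CRE). Capitals mark the CRE core TGACG, read on both strands, and the variant TGCGTCA, which contains the core on its reverse strand. Fosl2 is at chr5:32136222-32136471 on the + strand, Junb at chr8:84978749-84978998 on the - strand, Fos at chr12:85473640-85473889 on the + strand and Nr4a1 at chr15:101266596-101266845 on the + strand, all in GRCm38 and not in the build of the expression files.
Fosl2: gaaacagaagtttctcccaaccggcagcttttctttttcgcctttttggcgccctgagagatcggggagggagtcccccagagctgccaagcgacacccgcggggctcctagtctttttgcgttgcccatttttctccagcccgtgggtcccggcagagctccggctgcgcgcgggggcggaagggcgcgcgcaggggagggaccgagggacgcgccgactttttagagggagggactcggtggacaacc
Junb: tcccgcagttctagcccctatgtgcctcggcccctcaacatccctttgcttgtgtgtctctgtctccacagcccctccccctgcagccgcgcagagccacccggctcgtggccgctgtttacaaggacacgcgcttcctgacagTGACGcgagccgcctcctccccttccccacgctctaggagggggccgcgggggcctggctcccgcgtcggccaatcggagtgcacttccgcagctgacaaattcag
Fos: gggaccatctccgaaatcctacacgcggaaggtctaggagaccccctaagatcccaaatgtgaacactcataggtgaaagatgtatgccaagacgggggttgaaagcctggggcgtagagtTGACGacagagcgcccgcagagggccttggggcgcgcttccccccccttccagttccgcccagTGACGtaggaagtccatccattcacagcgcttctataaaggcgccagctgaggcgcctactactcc
Nr4a1: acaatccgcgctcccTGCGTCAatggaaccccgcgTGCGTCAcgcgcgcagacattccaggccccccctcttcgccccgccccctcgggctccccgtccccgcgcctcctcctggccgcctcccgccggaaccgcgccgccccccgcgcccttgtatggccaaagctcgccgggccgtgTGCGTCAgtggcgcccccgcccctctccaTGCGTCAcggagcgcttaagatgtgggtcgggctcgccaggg

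Fos held 2 CRE cores, starting 129 and 66 bases before the gene start as printed. Nr4a1 held 4, each inside a TGCGTCA. Junb, Fosb and Atf3 held 1 each, starting 106, 60 and 7 bases before the start, and the one in Fosb is also a TGCGTCA. Fosl2, Jun and Ier3 held none in this window. The core was thus in 5 of 8 windows, against 17.8% of 32851 promoters of the same length, and TGCGTCA in 2 of 8, against 1.75%. The share of G and C in the 8 windows ran from 54.4% to 74.4%, and the 32851 promoters were not matched to it. None of the 8 windows held the full CRE TGACGTCA (1.55% of all promoters), the AP-1 site TGANTCA (6.75%), the STAT site TTCNNNGAA (7.02%) or a CArG box, the site of serum response factor (1.47%). Sites further upstream were not searched. Myc and Egr1 have no window here, so the absence of a motif says nothing of these genes. Near variants, such as the TGACATCA in the Jun window, were not counted. These matches describe letters and do not show binding.

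More of the genes were past the threshold after prolactin than in any genotype comparison. In Ezh2 KO virgins 5 of the 10 were past the threshold and higher after prolactin, and in control virgins 6 were. The 5 genes Fosl2, Junb, Atf3, Myc and Ier3 were among them in both genotypes, and Nr4a1 in control mice alone by this count. With a pseudocount of 5 the difference of Atf3 in the Ezh2 KO came to 0.96, which leaves 4 there. Over all genes 2.75% were higher and 4.08% lower after prolactin in Ezh2 KO mice, and 4.76% were higher and 1.72% lower in control mice. Of all genes past the threshold, the higher ones made up 40.2% in the Ezh2 KO and 73.5% in the control, and 26.2% and 58.7% with each group rescaled to a common sum of FPKM. None of the 10 was past the threshold and lower in either genotype. Their median difference was 1.08 in Ezh2 KO and 1.38 in control virgins on the log2(FPKM + 1) scale, against a median of 0 over all genes in both.

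Fosl2, which encodes the FOS-family protein FRA-2, was the furthest apart of the 10 in both genotypes. It stood at 60.9 FPKM in Ezh2 KO virgins with prolactin, against 11.5 in untreated Ezh2 KO virgins, a 5.28-fold higher value. In control virgins it stood at 54.3 FPKM with prolactin, against 11.2 untreated, 4.87-fold higher. The log2 differences were 2.30 and 2.19. Both prolactin groups lay above all 10 other groups of the table, whose values for Fosl2 ran between 5.57 and 13.6 FPKM.

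Fos, the founding member of that family, did not share the pattern. It stood at 20.1 FPKM in Ezh2 KO virgins with prolactin, against 11.8 untreated, and at 28.2 FPKM in control virgins with prolactin, against 25.9 untreated. The log2 differences of 0.72 and 0.12 were both under the threshold. Fosb was low throughout the virgin groups, at 0.502 FPKM with prolactin in the Ezh2 KO, against 0.808 untreated, and at 0.793 FPKM with prolactin in the control, against 0.963 untreated.

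The makeup of the FOS family differed accordingly. Summed over Fos, Fosb, Fosl1 and Fosl2, family FPKM came to 81.5 in Ezh2 KO virgins with prolactin, against 24.1 untreated, and to 83.9 in control virgins with prolactin, against 38.1 untreated. Fosl2 made up 74.7% of that sum in the Ezh2 KO with prolactin, against 47.8% untreated, and 64.7% in the control with prolactin, against 29.3% untreated. These are shares of mRNA per length and say nothing of protein.

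Junb, whose protein is the JUN partner often set against c-JUN in its effect on proliferation, was at 68.0 FPKM in Ezh2 KO virgins with prolactin, against 22.4 untreated, a 3.04-fold higher value. In control virgins it was at 69.8 FPKM with prolactin, against 23.8 untreated, 2.94-fold higher. Jun itself, the main c-JUN gene, was at 33.6 FPKM with prolactin in the Ezh2 KO, against 23.4 untreated, and at 36.7 in the control, against 24.2 untreated. The differences of 0.51 and 0.58 for Jun were in the same direction and under the threshold. Of the summed JUN family FPKM of Jun, Junb and Jund, Junb made up 48.3% in the Ezh2 KO with prolactin, against 24.9% untreated, and 42.7% in the control with prolactin, against 24.8% untreated.

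**Figure D2:**
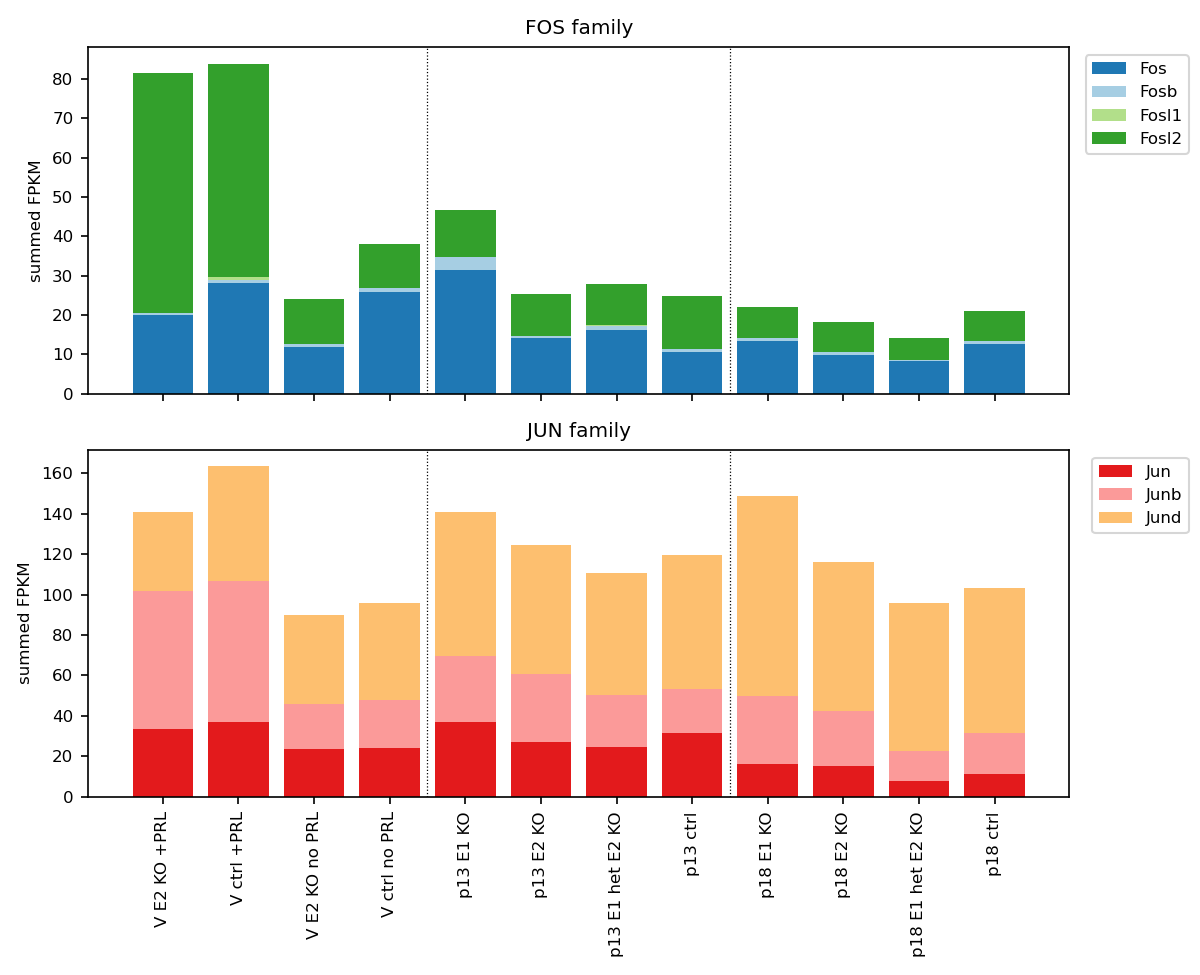
Stacked FPKM of the FOS family (Fos, Fosb, Fosl1, Fosl2) and of the JUN family (Jun, Junb, Jund) in each of the 12 groups, on linear axes that start at 0, with the groups named as in the bar plots of single genes. In the prolactin-treated virgin groups Fosl2 fills most of the FOS bar, at 74.7% in the Ezh2 KO and 64.7% in the control, whereas in the p13 Ezh1 KO Fos fills 67.4%.

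Atf3, a stress-induced bZIP factor of the ATF and CREB family, stood at 12.5 FPKM with prolactin in the Ezh2 KO, against 4.01 untreated, and at 18.3 FPKM with prolactin in the control, against 4.93 untreated. Myc, the growth-promoting bHLH factor, stood at 39.2 FPKM with prolactin in the Ezh2 KO, against 13.7 untreated, and at 49.1 FPKM with prolactin in the control, against 13.6 untreated. Ier3, which encodes a small regulator of cell survival that is not a DNA-binding factor, stood at 30.8 FPKM with prolactin in the Ezh2 KO, against 8.89 untreated, and at 27.6 in the control, against 11.1 untreated. All 3 genes were thus 2.49-fold to 3.71-fold higher after prolactin in both genotypes, with the untreated values of the genotypes lying close together.

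Nr4a1, an orphan nuclear receptor, stood at 9.32 FPKM with prolactin in the Ezh2 KO, against 7.28 untreated, and at 14.0 in the control, against 4.09 untreated. Its log2 difference was 0.32 in the Ezh2 KO and 1.56 in the control, the widest gap between the genotypes among the 10 genes. Egr1, a zinc finger factor and a standard readout of MAP kinase signalling, was at 16.5 FPKM with prolactin in the Ezh2 KO, against 21.3 untreated, and at 29.9 in the control, against 21.9 untreated. Its differences of -0.35 and 0.43 had opposite signs and both were under the threshold. The difference between the genotypes was not tested for any gene.

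**Figure D3:**
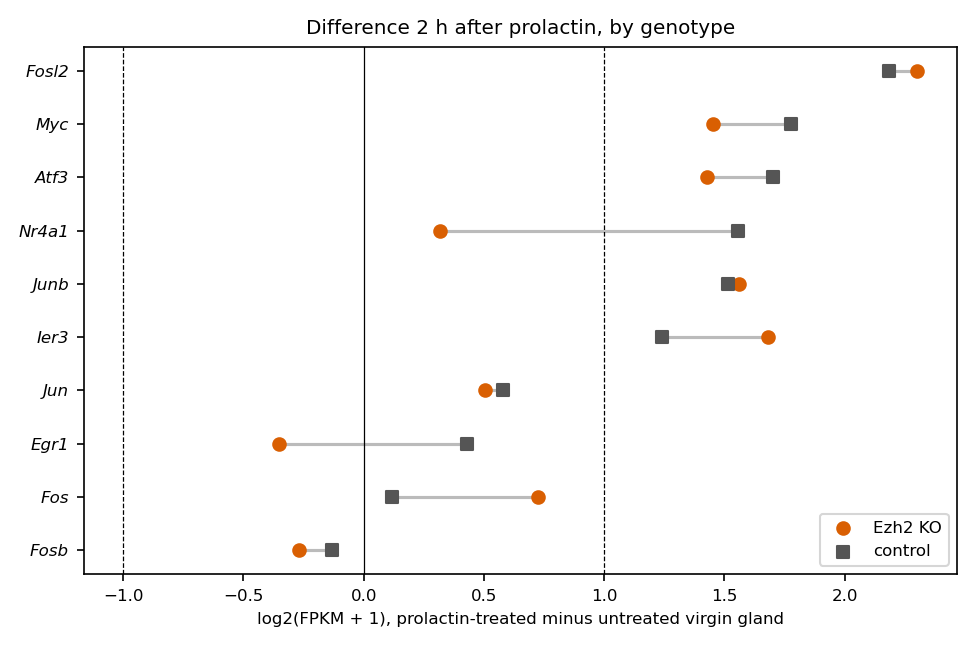
Difference in log2(FPKM + 1), prolactin-treated minus untreated virgin gland, for each of the 10 genes in Ezh2 KO (circles) and control (squares) mice, with a grey line joining the genotypes, dashed lines at differences of -1 and 1, and genes sorted by the control value. Fosl2, Junb, Atf3, Myc and Ier3 lie beyond the line in both genotypes, Nr4a1 lies beyond it in the control, and Fos, Fosb, Jun and Egr1 lie inside it.

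Other genes of the same response were counted from lists. Of 26 further immediate early genes, 23 passed the filter. Of these, 6 were higher and 1 lower after prolactin in the Ezh2 KO, and 9 were higher and 0 lower in the control, with medians of 0.56 and 0.88. Cyr61, a matricellular protein gene, was at 114 FPKM with prolactin in the Ezh2 KO, against 19.5 untreated, and at 144 in the control, against 24.7 untreated. Maff, a small MAF bZIP gene, was at 23.7 FPKM with prolactin in the Ezh2 KO, against 4.20 untreated, and at 44.3 in the control, against 3.54 untreated. Nr4a3, a relative of Nr4a1, was at 5.07 FPKM with prolactin in the Ezh2 KO, against 0.880 untreated, and at 13.3 in the control, against 0.171 untreated.

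Feedback inhibitors are usually induced with the immediate early genes. Of 16 such genes, 3 were higher and 1 lower after prolactin in the Ezh2 KO, and 6 were higher and 0 lower in the control, with medians of 0.19 and 0.85. Errfi1, an inhibitor of the EGF receptor, was at 121 FPKM with prolactin in the Ezh2 KO, against 29.8 untreated, and at 178 in the control, against 50.5 untreated. Dusp2, a MAP kinase phosphatase gene strongly expressed in blood cells, differed in opposite directions. It was at 3.28 FPKM with prolactin in the Ezh2 KO, against 11.8 untreated, and at 10.5 in the control, against 0.836 untreated.

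Acute targets of prolactin and STAT5 were counted too. Of 6 genes, 3 were higher in the Ezh2 KO and 5 in the control, with none lower and medians of 1.48 and 2.03. Cish, a STAT5 target that inhibits cytokine receptors, was at 51.1 FPKM with prolactin in the Ezh2 KO, against 11.0 untreated, and at 62.3 in the control, against 6.64 untreated. Socs3, which restrains STAT3 signalling and is a target of both STAT3 and STAT5, was at 58.8 FPKM with prolactin in the Ezh2 KO, against 6.17 untreated, and at 80.2 in the control, against 5.60 untreated. Of 13 bZIP partners of FOS and JUN, 0 were past the threshold in the Ezh2 KO and 2 were higher in the control, namely Atf4 at 157 FPKM, against 65.2 untreated, and Crem at 21.2 FPKM, against 9.96 untreated.

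**Figure D4:**
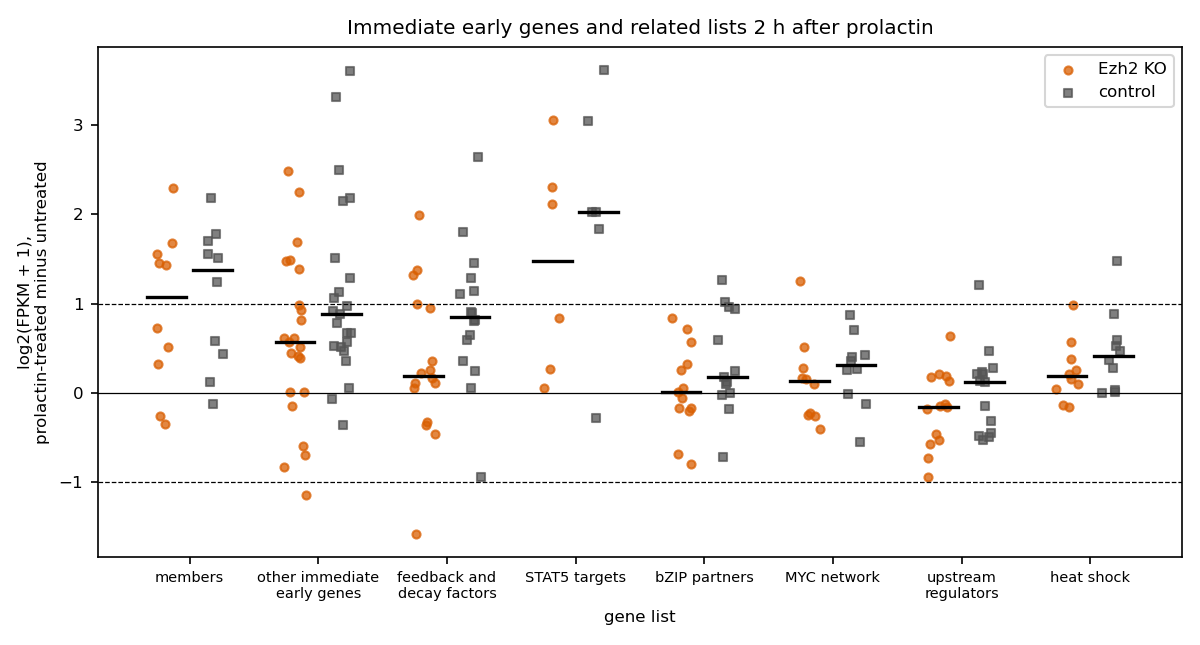
Difference in log2(FPKM + 1), prolactin-treated minus untreated virgin gland, of every gene of the 10 (members) and of 7 other lists that passed the filter, as circles for Ezh2 KO and squares for control mice, with a bar at each median and dashed lines at -1 and 1. The 10 genes have medians of 1.08 in the Ezh2 KO and 1.38 in the control, above those of the bZIP partners, MYC network, upstream regulators and heat shock genes. The medians of the STAT5 targets are higher than those of the 10 genes in both genotypes.

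Markers of blood, basal and muscle cells moved with the prolactin comparison, and their part in the result was not tested. Of 14 lymphocyte markers, 14 were lower after prolactin in the Ezh2 KO and 14 higher in the control. Their summed FPKM was 60.3 with prolactin in the Ezh2 KO, against 671 untreated, and 543 with prolactin in the control, against 102 untreated. Of 10 neutrophil markers in the table, 5 were higher in the Ezh2 KO and 7 in the control, and none was lower. Neutrophil FPKM summed to 434 with prolactin in the Ezh2 KO, against 68.9 untreated, and to 260 in the control, against 68.8 untreated. S100a8, a granulocyte protein gene, was at 186 FPKM with prolactin in the Ezh2 KO, against 20.9 untreated. No lymphocyte or neutrophil marker was listed at 0 in a virgin group. Of 10 macrophage markers, 1 was higher and 0 lower in each genotype.

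Of 10 basal and myoepithelial markers, 3 were higher and 0 lower after prolactin in each genotype, namely Krt17, Acta2 and Mylk. Their list summed to 725 FPKM with prolactin in the Ezh2 KO, against 413 untreated, and to 603 in the control, against 314 untreated. Mylk, a myosin kinase gene of contractile cells, was at 53.6 FPKM with prolactin in the Ezh2 KO, against 14.0 untreated, and at 32.9 in the control, against 9.18 untreated.

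Of 12 skeletal muscle markers, 5 were lower and 1 higher after prolactin in the Ezh2 KO, and 8 were lower and 1 higher in the control. The higher one in both was Acta1, skeletal muscle alpha-actin and a known target of serum response factor. It was at 431 FPKM with prolactin in the Ezh2 KO, against 8.46 untreated, and at 273 in the control, against 13.0 untreated. Acta1 thus stood apart from the rest of its marker list, and the reason was not tested. Of 18 proliferation genes, 6 were lower and 0 higher after prolactin in the Ezh2 KO, and 0 were past the threshold in the control.

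The Ezh2 genotype was compared next within the virgin groups. Without treatment, 1 of the 10 genes was past the threshold, with 3.35% of all genes higher and 0.911% lower in the Ezh2 KO. That gene was Fos, at 11.8 FPKM in the untreated Ezh2 KO, against 25.9 in the untreated control, a log2 difference of -1.08. Just past the threshold, it came to -0.88 with a pseudocount of 5, which ends the call, as 2 of the rescalings do. The median of the 10 was -0.07. Between the prolactin groups 0 of the 10 were past the threshold, against 0.764% of genes higher and 2.71% lower, and the median was -0.29. Egr1 had the widest difference, at 16.5 FPKM in the Ezh2 KO with prolactin, against 29.9 in the control with prolactin (-0.82). The lymphocyte markers differed between these groups too, with 14 of 14 higher in the untreated Ezh2 KO and 14 of 14 lower in the prolactin-treated Ezh2 KO than in the matching control. The 12 luminal epithelial markers summed to 883 FPKM in the untreated Ezh2 KO, against 1654 in the untreated control. With prolactin they summed to 1138 FPKM in the Ezh2 KO, against 1746 in the control. The part of these cells in the Fos and Egr1 values was not tested.

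At p13, the stage of alveolar growth, the Ezh1 KO held the highest values of the table for Fos, Fosb, Jun, Egr1 and Nr4a1. Against the p13 control, 3 of the 10 genes were past the threshold and higher in the Ezh1 KO and none lower, with 2.10% of all genes higher and 2.28% lower. These were Fos, Fosb and Egr1, and the median difference over all 10 genes was 0.35. Of the other 23 immediate early genes 0 were past the threshold in this comparison, with a median of 0.08, and 0 of 16 feedback inhibitors were.

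Fos stood at 31.5 FPKM in the p13 Ezh1 KO, 14.1 in the Ezh2 KO and 16.2 in the Ezh1 het Ezh2 KO, against 10.7 in the control. The Ezh1 KO was 2.94-fold higher than the control, with a log2 difference of 1.47, and the differences of the other genotypes were 0.36 and 0.55. Fosb, a close relative of Fos, stood at 3.31 FPKM in the Ezh1 KO, 0.550 in the Ezh2 KO and 1.15 in the Ezh1 het Ezh2 KO, against 0.523 in the control. It is a low gene, so its 6.33-fold difference in the Ezh1 KO rests on few FPKM, and the pseudocount reduces it to 1.50 on the log2 scale. With a pseudocount of 5 it came to 0.59, under the threshold, which leaves 2 of the 10 genes past it in the Ezh1 KO.

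Egr1 was higher in all 3 genotypes at p13. It stood at 49.2 FPKM in the Ezh1 KO, 37.8 in the Ezh2 KO and 35.1 in the Ezh1 het Ezh2 KO, against 15.4 in the control. The Ezh1 KO was 3.19-fold higher than the control, the Ezh2 KO 2.46-fold and the Ezh1 het Ezh2 KO 2.28-fold, with log2 differences of 1.61, 1.24 and 1.14 in that order. The last came to 0.97 with a pseudocount of 5, under the threshold. These comparisons share the control group, so its single value enters all 3.

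Egr1 was the single gene of the 10 past the threshold in the Ezh2 KO, with 2.65% of all genes higher and 6.59% lower, and in the Ezh1 het Ezh2 KO, with 3.12% higher and 3.19% lower. The medians of the 10 were 0.17 and 0.07. Myc was at 87.1 FPKM in the p13 Ezh2 KO, its highest value in the table, and at 56.9 in both the Ezh1 KO and the Ezh1 het Ezh2 KO, against 52.4 in the control. Its difference of 0.72 in the Ezh2 KO was under the threshold. Nr4a1 was at 14.5 FPKM in the Ezh1 KO and 13.5 in the control. It was at 9.74 FPKM in the Ezh2 KO and 9.08 in the Ezh1 het Ezh2 KO. The differences of these 2 groups from the control, -0.43 and -0.52, were under the threshold.

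The remaining genes varied less at p13. Jun ran between 24.5 FPKM in the Ezh1 het Ezh2 KO and 37.1 in the Ezh1 KO, against 31.4 in the control. Junb was at 32.4 FPKM in the Ezh1 KO, 33.7 in the Ezh2 KO and 25.9 in the Ezh1 het Ezh2 KO, against 21.6 in the control. Fosl2 was between 10.5 FPKM in the Ezh1 het Ezh2 KO and 11.9 in the Ezh1 KO, against 13.6 in the control. Atf3 was at 8.79 FPKM in the Ezh1 KO, 5.66 in the Ezh2 KO and 5.96 in the Ezh1 het Ezh2 KO, against 6.48 in the control. Ier3 was between 12.7 FPKM in the Ezh1 het Ezh2 KO and 15.9 in the Ezh2 KO, against 12.5 in the control. The widest difference among these 5 genes was 0.62, for Junb in the Ezh2 KO.

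Of the 23 other immediate early genes, 0 were higher and 4 lower in the p13 Ezh2 KO than in the control, with a median of -0.18. Klf4, a zinc finger factor, was at 10.0 FPKM in the Ezh2 KO, against 25.3 in the control, and Cyr61 was at 18.8 FPKM, against 44.5. Klf2 and Maff were lower too, at 11.0 and 3.09 FPKM in the Ezh2 KO, against 26.4 and 7.97 in the control. In the Ezh1 het Ezh2 KO 1 of 23 was lower, Maff at 3.04 FPKM.

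The p13 control glands held far more skeletal muscle RNA than the others. The 12 muscle markers summed to 2509 FPKM in the Ezh1 KO, 40.1 in the Ezh2 KO and 36.9 in the Ezh1 het Ezh2 KO, against 10128 in the control, and all 12 were lower in each. Of 5 erythroid markers, 2 were lower in the Ezh1 KO, 4 in the Ezh2 KO and 3 in the Ezh1 het Ezh2 KO, where 1 was higher. Hbb-b1, a beta globin gene, was at 131 FPKM in the Ezh1 KO, 39.2 in the Ezh2 KO and 78.5 in the Ezh1 het Ezh2 KO, against 458 in the control. Hbb-b2, the other beta globin gene listed, was lower past the threshold in the Ezh2 KO alone. It was at 272 FPKM in the Ezh1 KO, 35.5 in the Ezh2 KO and 156 in the Ezh1 het Ezh2 KO, against 186 in the control. Adipocyte markers summed to between 16073 and 28906 FPKM in the knockout groups, against 41736 in the control. All 14 lymphocyte markers were higher in the Ezh1 het Ezh2 KO than in the control. Luminal epithelial markers summed to 2640 FPKM in the Ezh2 KO, against 1538 in the control. In the Ezh1 KO they summed to 1752 FPKM and in the Ezh1 het Ezh2 KO to 1544. The part of these cells in the Fos, Fosb, Egr1 and Myc differences was not tested. Hba-a1 and Hba-a2, near-identical alpha globin genes between which reads may have been split, were listed at 0 in the p13 Ezh1 KO. In the p13 Ezh1 het Ezh2 KO, Hba-a1 was at 0.340 FPKM, against 1320 in the control. Hba-a2, the higher erythroid marker there, was at 174 FPKM, against 0.0620 in the control. The levels of both genes are uncertain, and the erythroid counts of these groups share that limit.

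**Figure D5:**
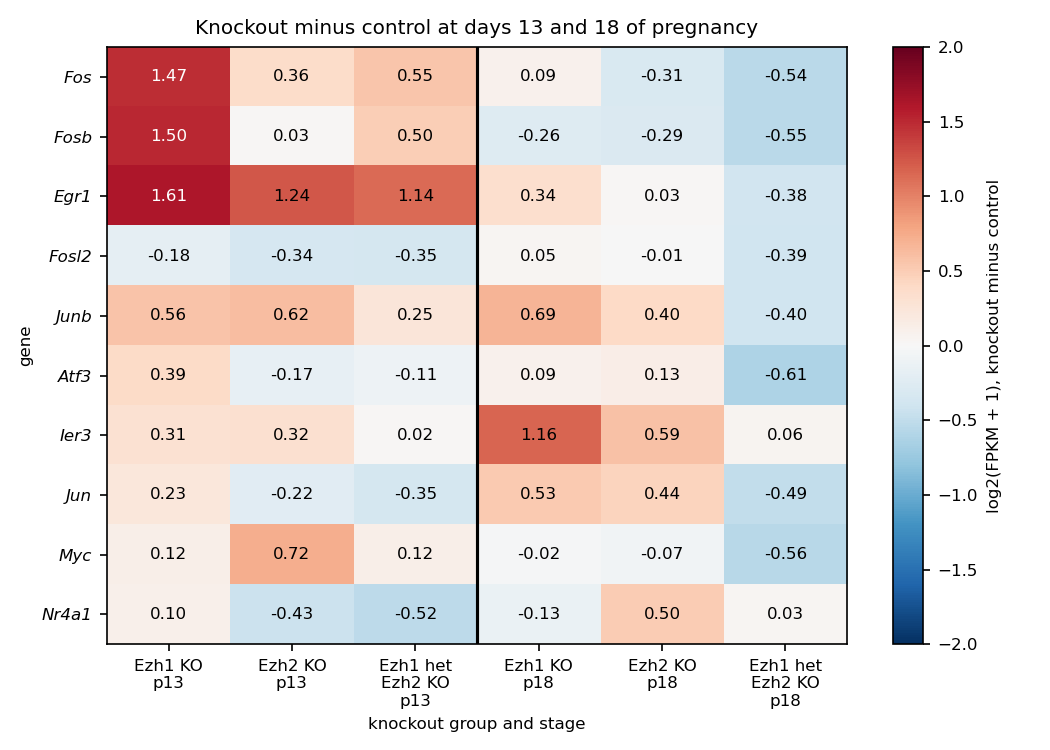
Heat map of the difference in log2(FPKM + 1) of each knockout group minus the control of its stage, with the value written in each cell, genes in rows and knockout groups at p13 and p18 in columns; red is higher and blue lower in the knockout. At p13 Egr1 is past 1 in all 3 genotypes and Fos and Fosb in the Ezh1 KO, while at p18 Ier3 in the Ezh1 KO, at 1.16, is the single cell past it.

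At p18, late pregnancy with secretory differentiation under way, fewer of the genes were past the threshold between genotypes. Of the 10 genes 0 were past the threshold in the Ezh2 KO, 1 was higher in the Ezh1 KO and 0 in the Ezh1 het Ezh2 KO. Over all genes, 2.38% were higher and 2.14% lower in the Ezh2 KO, 1.21% were higher and 1.39% lower in the Ezh1 KO, and 1.23% were higher and 1.55% lower in the Ezh1 het Ezh2 KO. The share of higher genes among all past the threshold depends on the scaling at p18. It was 52.6% in the Ezh2 KO, 46.6% in the Ezh1 KO and 44.2% in the Ezh1 het Ezh2 KO, and over 4 rescalings it ran from 43.9% to 78.3%, 26.2% to 48.1% and 12.0% to 50.1%. The gene past the threshold was Ier3, at 26.2 FPKM in the Ezh1 KO, 17.2 in the Ezh2 KO and 11.6 in the Ezh1 het Ezh2 KO, against 11.1 in the control. The Ezh1 KO group, which had 2 libraries, was 2.35-fold higher than the control, a log2 difference of 1.16 that is no longer past the threshold with a pseudocount of 5 (0.95) or after 2 of the rescalings. Other cell markers moved with it: 4 of 5 erythroid markers, 10 of 12 muscle markers and 2 of 13 adipocyte markers were higher in the p18 Ezh1 KO. Their sums were 355, 188 and 12618 FPKM in the Ezh1 KO, against 54.3, 66.2 and 6952 in the control, and their part in the Ier3 value was not tested.

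Junb was at 33.5 FPKM in the Ezh1 KO, 27.2 in the Ezh2 KO and 15.2 in the Ezh1 het Ezh2 KO, against 20.4 in the control, with all differences under the threshold. Egr1, which stood apart in each genotype at p13, was at 14.0 FPKM in the Ezh1 KO, 11.1 in the Ezh2 KO and 8.12 in the Ezh1 het Ezh2 KO, against 10.9 in the p18 control. Fos was at 13.4 FPKM in the Ezh1 KO, 9.97 in the Ezh2 KO and 8.35 in the Ezh1 het Ezh2 KO, against 12.6 in the control. Fosb was between 0.329 FPKM in the Ezh1 het Ezh2 KO and 0.614 in the Ezh1 KO, against 0.939 in the control. All differences of Fos, Fosb and Egr1 from the control were under the threshold at p18.

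The Ezh1 het Ezh2 KO at p18 was the lowest of the 12 groups for Fos, Fosb, Fosl2, Jun, Junb, Egr1 and Atf3. Against the p18 control 8 of the 10 genes were below 0, with a median of -0.45 and none past the threshold. Jun was at 7.58 FPKM in that group, 16.3 in the Ezh1 KO and 15.4 in the Ezh2 KO, against 11.0 in the control. Myc was at 28.5 FPKM in the Ezh1 het Ezh2 KO, 41.7 in the Ezh1 KO and 40.4 in the Ezh2 KO, against 42.4 in the control. Of 14 lymphocyte markers 12 were higher in the Ezh1 het Ezh2 KO than in the control at this stage, and their summed FPKM was 303. Their part in these values was not tested.

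The remaining genes were under the threshold at p18. Fosl2 was at 7.92 FPKM in the Ezh1 KO, 7.56 in the Ezh2 KO and 5.57 in the Ezh1 het Ezh2 KO, against 7.64 in the control. Atf3 was between 3.15 FPKM in the Ezh1 het Ezh2 KO, a difference of -0.61, and 5.94 in the Ezh2 KO, against 5.34 in the control, and Nr4a1 between 3.21 FPKM in the Ezh1 KO and 5.56 in the Ezh2 KO, against 3.62. Of the 23 other immediate early genes 0 were past the threshold in any of the 3 genotypes.

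Across stages, control glands were read as untreated virgin, p13 and p18. Myc stood at 13.6, 52.4 and 42.4 FPKM in that order, and was 3.85-fold higher at p13 than in virgins. Nr4a1 stood at 4.09, 13.5 and 3.62 FPKM, so p13 was its high point. Fos stood at 25.9, 10.7 and 12.6 FPKM, with the virgin gland highest. At p13 against the virgin, Myc and Nr4a1 were higher and Fos lower past the threshold, against 9.12% of genes higher and 2.76% lower. The Fos difference of -1.20 came to -0.98 with a pseudocount of 5, under the threshold. All 18 proliferation genes, all 12 muscle markers, all 10 basal markers and 4 of 5 erythroid markers were higher in that comparison, and the median of all genes was 0.17. Muscle markers summed to 68.0 FPKM in the virgin, 10128 at p13 and 66.2 at p18. Of all genes past the threshold 76.8% were higher at p13, and 62.9% with the groups rescaled to a common upper quartile.

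Jun stood at 24.2, 31.4 and 11.0 FPKM in virgin, p13 and p18 control glands, Egr1 at 21.9, 15.4 and 10.9, and Fosl2 at 11.2, 13.6 and 7.64. Junb, at 23.8, 21.6 and 20.4 FPKM, and Ier3, at 11.1, 12.5 and 11.1 FPKM, were nearly level across the stages, as was Atf3 at 4.93, 6.48 and 5.34. Fosb was at 0.963, 0.523 and 0.939 FPKM. At p18 against p13, Jun (-1.43) and Nr4a1 (-1.65) were lower past the threshold in the control and 0 were higher, with 3.55% of genes higher and 19.1% lower. All 7 fibroblast, 12 muscle and 13 adipocyte markers and 4 of 5 erythroid markers were lower too. The part of these cells in either stage comparison was not tested.

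The same stage step was read in each knockout, where the median of all genes was between -0.48 and -0.45. In the Ezh2 KO 2 of the 10 genes were lower at p18, Egr1 (-1.68) and Myc (-1.09), against 4.10% of genes. In the Ezh1 KO 5 were lower, Fos (-1.17), Fosb (-1.42), Jun (-1.14), Egr1 (-1.74) and Nr4a1 (-1.88), against 12.1% of genes. In the Ezh1 het Ezh2 KO 3 were lower, Jun (-1.57), Egr1 (-1.99) and Nr4a1 (-1.09), against 16.0%, and all 10 were below 0. Relative to the median of all genes, Egr1 was at -1.26 in the Ezh1 KO and -0.01 in the control. With a pseudocount of 5, 2 of the 10 genes were lower in the Ezh1 KO, where Fos came to -0.99, Fosb to -0.57 and Jun to -0.98, and 2 in the Ezh1 het Ezh2 KO, where Nr4a1 came to -0.69. Values at p18 depended on the scaling. With each group rescaled to a common sum the all-gene medians were -1.02 in the Ezh1 KO, -1.10 in the Ezh1 het Ezh2 KO, -0.54 in the Ezh2 KO and -0.90 in the control, and 8, 8, 2 and 3 of the 10 genes were lower in that order. With a common upper quartile all 4 medians lay between -0.06 and 0, and 3, 2, 1 and 1 of the 10 genes were lower, with 1 higher in the Ezh1 KO. Higher genes made up 11.4% of those past the threshold in the Ezh1 KO, 9.41% in the Ezh1 het Ezh2 KO, 21.2% in the Ezh2 KO and 15.7% in the control, against 44.2%, 51.9%, 75.1% and 40.4% with the upper quartile.

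Jund, the third JUN gene and the one usually expressed without induction, made up between 63.4% and 76.3% of the JUN family FPKM in the p18 groups, against 50.7% to 55.6% in the p13 groups.

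The 10 genes did not move as one block across the 12 groups. Pearson correlations of log2(FPKM + 1) are given as descriptions over 12 pooled values that share tissue, controls and processing. Junb and Atf3 had the highest r of the 45 pairs at 0.91, followed by Fosl2 with Junb and Fosl2 with Atf3, both at 0.88, and Junb with Ier3 at 0.87. Fos correlated at 0.71 with Egr1 and at 0.66 with Fosb, but Fosb had an r of -0.03 with Fosl2 and -0.12 with Ier3, and Egr1 had 0.08 with Ier3. Fos and Myc were at 0.05. Fosl2, Junb, Atf3 and Ier3 have the prolactin-treated virgin groups as their 2 highest, and Fos, Fosb, Jun, Egr1 and Nr4a1 have the p13 Ezh1 KO as their highest.

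Genes with the most similar pattern were sought among 11112 genes that reached 5 FPKM in some group. For the mean profile of the 10 genes these were Sema4c and Stat3, both at an r of 0.93, and Ccr1, Adamts15 and Zfp948, at 0.92. For Egr1 they were Zfp740 at 0.96, Ptbp2, Zfp212 and Rbm39 at 0.95, and Taf8 at 0.94. For Fos they were Mnda at 0.85, Ifi204 at 0.84, and Zfyve27, Cirbp and Cdk5rap1 at 0.83. These correlations over 12 pooled values have no test.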

How the data were processed

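Poly(A) RNA of whole mammary tissue gave 31 libraries in 12 groups, taken from the labels. The deposited table holds FPKM, 1 pooled value a group, made by the authors. The way they pooled libraries was not given in the sources used here. Per the submitters' processing notes, the tools were TopHat, Bowtie, BWA, Cufflinks, Cuffdiff, HOMER, FastQC, Trim Galore and CASAVA and the build was mm9, with neither versions nor which tool served the RNA. Depth is unknown: among 1282 genes below 0.05 FPKM in both p13 Ezh2 KO and p13 control, the commonest ratio covered 1.95%, so reads could not be counted back. All 14 ubiquitously expressed genes checked were above 0.

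Differences were log2(FPKM + 1), with genes kept at 1 FPKM or more in at least 1 group, and a difference of 1 or more in size counted as past the threshold. With 1 value a group no test, SD or paired fit could be had. The 10 genes, the gene lists and the cell type markers were chosen with earlier results of these data known. All members are named; from each list the members named are 1 to 4 among those with the largest differences, and Ly6g of the neutrophil list has no row in the table. Dusp2, Crem, S100a8, Acta1, Mylk, Hbb-b1, Hbb-b2, Klf2 and the genes named to identify a small count were picked after their values were seen. The 5 genes nearest in pattern were taken by Pearson correlation among genes reaching 5 FPKM in some group. Alternatives were a filter of 5 FPKM or none, pseudocounts of 0.1 and 5, 4 rescalings and a threshold of 2. Motifs were searched in RefSeq promoter sequences of GRCm38.p6 as exact matches. On simulated data only the calculation of differences was tested, for 1 comparison, and the other steps were not. Python 3.11.15, pandas 2.3.3, NumPy 2.4.6 and matplotlib 3.10.9 were used.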

Additional observations from a re-analysis of the deposited data

Results flagged for a closer look

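In 4 cases a knockout group stood on one side of its control at p13 and on the other side at p18, with the log2(FPKM + 1) differences at least 1 apart. Each rests on single pooled values, and the difference between the stages was not tested in any of them. Fosb in the Ezh1 KO was at -0.26 against the p18 control and at 1.50 against the p13 control, a gap of -1.77 between the stages. Egr1 in the Ezh1 het Ezh2 KO was at -0.38 at p18 and 1.14 at p13, a gap of -1.52. Fos in the same genotype was at -0.54 at p18 and 0.55 at p13, a gap of -1.09, and Fosb was at -0.55 at p18 and 0.50 at p13, a gap of -1.04. Fosb lay under 1 FPKM in all p18 groups and in the p13 control.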

How the results depend on the processing

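No paired analysis was possible because each group is 1 pooled value with no replicate, and for the same reason leaving out a replicate was not run. Of the 10 genes, 5 stayed higher after prolactin in the Ezh2 KO and 6 in the control under all 4 rescalings. A pseudocount of 5 left 4 and 6. A pseudocount of 0.1 gave 2 genes past the threshold in the p13 Ezh1 het Ezh2 KO, where 1 was, and 1 for that genotype at p18, where 0 were. A pseudocount of 5 gave 0 in the untreated virgin Ezh2 KO, the p13 Ezh1 het Ezh2 KO and the p18 Ezh1 KO, where 1 each was. It also gave 2 in the p13 Ezh1 KO, where 3 were, 2 in the control at p13 against virgin, where 3 were, and at p18 against p13 it gave 2 in the Ezh1 KO, where 5 were, and 2 in the Ezh1 het Ezh2 KO, where 3 were. A common sum without milk protein genes, or without milk protein, muscle and erythroid genes, gave 0 in the untreated virgin Ezh2 KO and the p18 Ezh1 KO. A common upper quartile gave 1 in the control at p18 against p13, where 2 were. A threshold of 2 gave 1 after prolactin in each genotype, Fosl2, and 0 in the untreated virgin Ezh2 KO, in all 3 knockouts at p13, in the p18 Ezh1 KO and in both stage comparisons of the control. The cause of these shifts was not tested beyond the setting itself. No direction of a called value reversed. Read depth is unknown, so no limit from depth could be set for any gene.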

Other observations

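Upstream regulators, heat shock genes and MYC partners were examined beside the 10 genes. Of 14 regulators of immediate early promoters, 0 were past the threshold after prolactin in the Ezh2 KO, with a median difference of -0.16, and 1 was higher in the control, with a median of 0.12. That was Srf, the serum response factor gene, at 26.4 FPKM with prolactin in the control, against 10.9 untreated. Rps6ka1, a MAP kinase-activated kinase gene and 1 of the 14, was lower at p18. It was at 13.0 FPKM in the Ezh2 KO and 15.8 in the Ezh1 KO, against 35.7 in the control. Over all genes 2.14% were lower past the threshold in the p18 Ezh2 KO and 1.39% in the p18 Ezh1 KO.

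Of 10 inducible heat shock genes, 0 were past the threshold after prolactin in the Ezh2 KO (median 0.18) and 1 was higher in the control (median 0.41), namely Hspb1, a small heat shock protein gene, at 178 FPKM, against 63.5 untreated. Between genotypes at p13 and p18, 0 of the 10 were past the threshold in any knockout. Of 10 MYC partners and antagonists, Mycl1 alone was past the threshold after prolactin, at 9.44 FPKM with prolactin in the Ezh2 KO, against 3.38 untreated. Mxd3, a MAX dimerisation gene expressed in cycling cells, was at 15.6 FPKM in the p13 control, against 1.82 in untreated control virgins, where Myc was higher at p13 as well.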
